A study of Mus musculus with 5 samples.

Results

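Kinesins, cytoplasmic dyneins and tubulins are the motors and the tracks of the microtubule network. The 72 genes described here were chosen by symbol from the 18193 genes named on the array: the kinesin motors (Kif), kinesin light chains (Klc), the chains of the cytoplasmic dyneins (Dync, Dynl), and the alpha-, beta- and gamma-tubulins. Sorted by their known roles, they comprised 15 mitotic kinesins, 17 kinesins of cargo transport, 9 other kinesins, 3 kinesin light chains, 5 chains of dynein 1, 2 of dynein 2, 6 dynein light chains, 4 alpha-, 8 beta- and 2 gamma-tubulins, and 1 tubulin pseudogene. A member was tested where its mean log2 intensity over the 5 arrays lay above that of the median signal of all values (27.8), which 58 members did.

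RNA came from the progenitor zones of the rostral medial ganglionic eminence (MGE). This part of the ventral forebrain gives rise to many cortical interneurons, and it was sampled at E15.5 (days of embryonic development). The 4 groups were tissue from wild type (WT) embryos (1 array), tissue from Dlx1/2 mutant embryos (2 arrays), primary neuronal cultures grown from the same zones of WT embryos (1 array), and such cultures from Dlx1/2 mutants (1 array). Dlx1 and Dlx2 are homeodomain transcription factors of ventral forebrain progenitors. The titles write the mutants as -/- and the WT tissue array as "+/", and the labels give neither the alleles, the strain, the number of embryos pooled nor the age of the cultures. Every tissue difference therefore rests on the same WT array, and whether the 2 arrays of mutant tissue hold RNA of different embryos is not stated, so the p-values measure a spread that may be technical.

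Kinesins walk along microtubules, mostly toward their plus ends, and dynein walks toward the minus ends. In dividing progenitors a set of kinesins builds the spindle, moves chromosomes and completes cytokinesis. In neurons, other kinesins carry vesicles, mitochondria and receptors into axons and dendrites, dynein returns cargo and pulls the nucleus during migration, and the alpha- and beta-tubulin isotypes form the lattice on which both run.

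Across the series, the deposited signal of Dlx1 was 3278 (WT tissue) and 603 (WT culture), against 0.921 to 2.80 on the 3 mutant arrays. Lhx6, Lhx8, Gad1 and Gad2, markers of MGE neurons, had signals of 583 to 1513 in WT tissue, and Lhx6, Lhx8 and Gad2 fell in mutant tissue (3 of 5 MGE markers lower, 0 higher; summed signal 4095 against 2032 and 2074). Nkx2-1, which specifies the MGE, was dim in WT tissue (43.3) and dimmer in culture (16.2 and 12.6). Xist, which is transcribed from the inactive X chromosome of females, read 625 in WT tissue against 106 and 143 in mutant tissue, so the sex of the pooled embryos may differ between the groups. Kif4 and Dynlt3 are X-linked, and the part of sex in their values was not tested. The difference between the 2 mutant tissue arrays had an SD of 0.27 (log2) over the 58 tested members and 0.32 over all 11063 genes tested.

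In MGE tissue, the mitotic kinesins were lower and several transport kinesins higher in Dlx1/2 mutants. In all, 10 members rose and 10 fell with an adjusted p below 0.05 (limma, Benjamini-Hochberg over all genes tested), against 8.59% of all genes tested called higher and 6.7% called lower (15.3% in all). Of the 11 mitotic kinesins tested, 8 fell and 0 rose, with a median difference of −0.67 (log2, mutant minus WT), where the median over all genes tested was 0.0010. In 10 of the 11 both mutant arrays lay below the WT array, as did 40.2% of all genes tested. Of the 15 transport kinesins tested, 5 rose and 0 fell, with a median of 0.47. In 12 of the 15 both mutant arrays lay above WT, as did 40.8% of all genes tested.

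**Figure D1:**
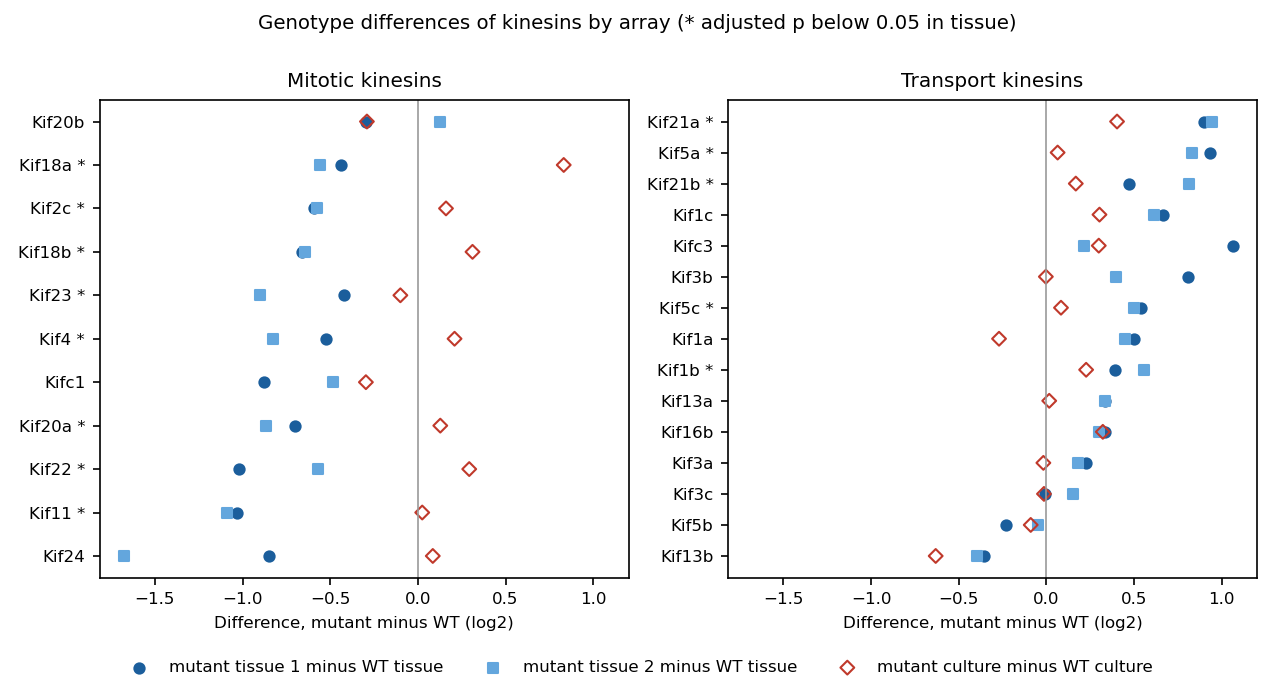
Difference from WT (log2, x axis) of each tested mitotic kinesin (left) and transport kinesin (right), with 1 point per mutant array: circles and squares for the 2 mutant tissue arrays against WT tissue, open diamonds for mutant against WT culture. For all mitotic kinesins shown except Kif20b both tissue points lie left of 0, while 8 of 11 culture points lie right of it.

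Kif11, the spindle motor that slides antiparallel microtubules apart, had a log2 intensity of 9.35 on the WT tissue array, 8.32 and 8.26 on those of mutant tissue, and 7.95 (WT) and 7.97 (mutant) in culture. Both mutant tissue arrays lay about 1 log2 unit below the WT array, and the culture arrays lay together below all tissue arrays. In mutant tissue it fell by 1.06 ± 0.13 (SE), or 2.09-fold (limma adjusted p = 0.00014), and its 3 probe sets that passed the filter ranged from −1.06 to −0.80. Kif22, a chromosome-binding kinesin, read 10.87 on the WT tissue array, 9.85 and 10.30 on those of mutant tissue, and 9.97 (WT) and 10.27 (mutant) in culture. WT tissue was again the highest array, although the 2 mutant tissue arrays themselves differed by an SD of 0.32. It fell by 0.79 ± 0.14 (adjusted p = 0.0027), in the same direction in 3 of 3 probe sets.

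Kif20a, a motor of cytokinesis, read 8.39 on the WT tissue array and 7.69 and 7.52 on the mutant ones (−0.78 ± 0.16, adjusted p = 0.0055). Kif2c, which removes tubulin from microtubule ends at centromeres, read 8.94 on the WT tissue array and 8.35 and 8.37 on the mutant ones. The difference was −0.58 ± 0.13 (limma adjusted p = 0.0087), and the 4 probe sets of Kif2c differed by −1.31 to −0.36. The probe set used carries the suffix _x_at of sets that can match several genes. Without _x_at and _s_at probe sets the Kif2c call was lost. For Kif20a and Kif2c both mutant tissue arrays lay below the WT array, as in 40.2% of all genes tested. The mutant replicates of Kif2c were close to each other. Kif4, a chromosome-arm and midzone kinesin, read 8.01 on the WT tissue array and 7.49 and 7.19 on the mutant ones (−0.67 ± 0.18, adjusted p = 0.027).

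The other 3 calls were near the threshold. Kif18a, which dampens chromosome movement, differed by −0.50 (adjusted p = 0.043), Kif18b, which acts on astral microtubules, by −0.65 (0.045), and Kif23, the motor of the centralspindlin complex, by −0.66 (0.046). Of these 3, Kif23 spread most between its mutant tissue arrays, at 7.62 and 7.15 against 8.05 in WT. The second probe set of Kif23 above the filter differed by −0.14, with −0.46 and 0.18 on the mutant arrays. Without _x_at and _s_at probe sets the Kif18b and Kif23 calls were lost, although the probe sets used for them lack these suffixes. With the deposited scaling kept, the Kif18b call was lost too. Kifc1, Kif24 and Kif20b did not pass, with differences of −0.68, −1.26 and −0.09. Kif14, Kif15, Kif2b and Kifc5b were too dim to be tested, and Kif14 and Kif2b were at the floor on all 5 arrays.

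The promoters of the mitotic kinesins carry short sequences known from genes of the G2 and M phases, which are shown here because the members fell together. The cell cycle genes homology region (CHR, letters TTTGAA) is the element through which the DREAM and MuvB complexes hold such genes off and then drive them, and the CCAAT box upstream of it is bound by NF-Y. RefSeq promoters (GRCm38.p6, 250 bases before to 50 after the start) were at hand for 57 of the 72 members, 14 of them mitotic kinesins. The windows below run from 120 bases before the start to 30 after it, 5′ to 3′ on the gene's strand, and capitals mark TTTGAA or CCAAT matches on either strand (TTCAAA and ATTGG where they are on the other strand).
Kif11 (GRCm38.p6 chr19:37376262-37376411, plus strand): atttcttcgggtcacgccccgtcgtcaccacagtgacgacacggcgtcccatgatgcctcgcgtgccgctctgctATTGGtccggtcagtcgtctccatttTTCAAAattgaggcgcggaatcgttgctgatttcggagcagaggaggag
Kif22 (GRCm38.p6 chr7:127042391-127042540, minus strand): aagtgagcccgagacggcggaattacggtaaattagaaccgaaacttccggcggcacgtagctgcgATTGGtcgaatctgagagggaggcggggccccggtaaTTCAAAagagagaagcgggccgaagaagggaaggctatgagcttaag
Kif23 (GRCm38.p6 chr9:61946770-61946919, minus strand): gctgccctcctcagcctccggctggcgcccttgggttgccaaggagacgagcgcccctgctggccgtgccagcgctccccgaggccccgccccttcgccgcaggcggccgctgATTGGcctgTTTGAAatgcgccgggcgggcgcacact
Kif18b (GRCm38.p6 chr11:102925095-102925244, minus strand): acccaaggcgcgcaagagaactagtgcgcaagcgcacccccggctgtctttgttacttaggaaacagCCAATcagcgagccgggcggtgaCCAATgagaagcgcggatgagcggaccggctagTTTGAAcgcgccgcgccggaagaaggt
Kif4 (GRCm38.p6 chrX:100625945-100626094, plus strand): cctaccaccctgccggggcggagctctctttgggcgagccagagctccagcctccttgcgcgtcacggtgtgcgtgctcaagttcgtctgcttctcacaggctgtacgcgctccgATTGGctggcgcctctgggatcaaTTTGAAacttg
Kifc1 (GRCm38.p6 chr17:33890604-33890753, minus strand): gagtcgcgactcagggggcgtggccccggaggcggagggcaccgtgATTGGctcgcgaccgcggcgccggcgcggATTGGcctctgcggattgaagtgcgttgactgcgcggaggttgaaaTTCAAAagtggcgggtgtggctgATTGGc

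TTTGAA stood in the promoters of 11 of 14 mitotic kinesins (78.6%), against 17.9% of all 32851 RefSeq promoters of this length. Its first base lay within 50 bases of the start in 9 of 14 (64.3%, against 4.94% of all promoters). In Kif11, Kif15 and Kif22 it lay 17 to 19 bases before the start, and in Kif23, Kif18b and Kifc1 at the bases 2 to 4 after it. A TTTGAA near the start together with a CCAAT anywhere in the window was found in 7 of 14, against 2.08% of all promoters. The variant TTCGAA, which reads the same on both strands, was found in Kif24, at 26 bases before the start, and in 1.56% of all promoters. Of the 8 mitotic kinesins that fell, 7 had a promoter at hand, 6 held TTTGAA and 5 held it near the start. Kif18a held none, and that of Kif2c lay 103 bases before the start. Kif14, Kif15, Kif20b, Kifc1 and Kifc5b, which did not pass or were too dim to be tested, also held TTTGAA, while Kif24 and Kif2b did not. Kif20b, which differed by −0.09 in tissue, held it at the bases 8 and 14 after the start. The letters were thus not limited to the mitotic kinesins that fell.

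Promoters of transport kinesins held TTTGAA in 1 of 11 genes, in 1 of the 2 promoters of Kif1a, against 20.2% of all genes with a RefSeq promoter. Of the 10 members that rose in tissue, 7 had a promoter at hand, and none of these held it. With so few promoters and that share, its absence is not read as a trait of the members that rose. The promoters of Klc1 and Kif5c are shown in the same window, with no match in capitals. The letters describe the windows only, and no binding was measured.
Klc1 (GRCm38.p6 chr12:111758748-111758897, plus strand): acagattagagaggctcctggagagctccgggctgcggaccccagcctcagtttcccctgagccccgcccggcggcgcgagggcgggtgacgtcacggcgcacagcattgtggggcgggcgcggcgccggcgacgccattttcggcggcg
Kif5c (GRCm38.p6 chr2:49619166-49619315, plus strand): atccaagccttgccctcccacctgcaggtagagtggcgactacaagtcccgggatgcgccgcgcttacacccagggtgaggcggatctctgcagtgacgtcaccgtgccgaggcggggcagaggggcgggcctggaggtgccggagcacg

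**Figure D2:**
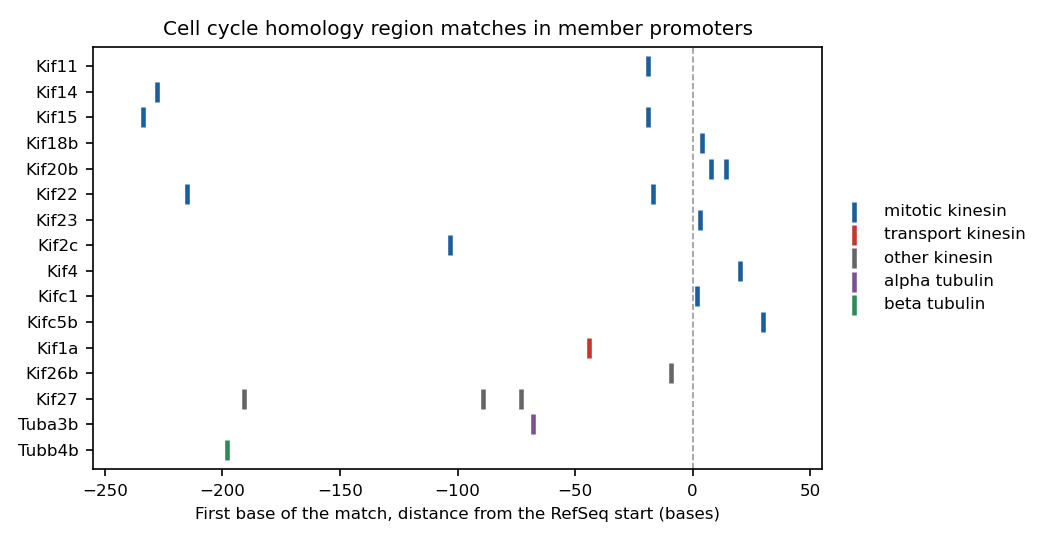
Position of each TTTGAA match (either strand) relative to the RefSeq start (x axis, bases, dashed line at the start) in every member whose promoter holds at least 1, coloured by class. Matches of 9 mitotic kinesins lie within 50 bases of the start.

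Genes of the spindle and of mitosis other than kinesins moved in the same direction in tissue. Of 27 tested genes of that list, 23 fell and 0 rose (median −0.84), and their summed signal was 30368 in WT tissue against 17904 to 18479 in mutant tissue. Markers of progenitors were mixed, with 3 of 12 higher, 2 lower and a median of −0.08, and a summed signal of 35032 against 35126 to 35320. In bulk tissue, fewer dividing cells and less RNA per dividing cell cannot be told apart.

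The rises among the motors of cargo transport were led by kinesin-1 and by the kinesin-4 pair Kif21a and Kif21b. Klc1, the light chain that links kinesin-1 to its cargo, read 9.68 on the WT tissue array, 10.54 and 10.65 on those of mutant tissue, and 9.92 (WT) and 10.01 (mutant) in culture. Mutant tissue stood above every other array. The rise was 0.92 ± 0.09, or 1.89-fold (limma adjusted p = 4.7e-05), and of its 3 probe sets that passed the filter 2 differed by 0.92 and 1.04 and the dimmest by −0.16. Klc4 did not pass (0.23, adjusted p = 0.45), and Klc3 was too dim to be tested.

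Kif5a and Kif5c, the neuronal heavy chains of kinesin-1, both rose. Kif5a read 6.81 on the WT tissue array, 7.75 and 7.64 on those of mutant tissue, and 7.10 (WT) and 7.16 (mutant) in culture (0.88 ± 0.18 in tissue, adjusted p = 0.0052). Kif5c read 10.01 on the WT tissue array, 10.56 and 10.52 on those of mutant tissue, and 10.17 (WT) and 10.25 (mutant) in culture (0.52 ± 0.09, adjusted p = 0.0017), while its second probe set above the filter differed by 0.027. For both genes the mutant tissue arrays were the highest. Kif5b, the heavy chain found in all cells, differed by −0.14 ± 0.11 (adjusted p = 0.44), with 6 probe sets between −0.14 and 0.62.

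Kif21a, a kinesin-4 motor of axons, read 7.86 on the WT tissue array, 8.76 and 8.81 on those of mutant tissue, and 6.70 (WT) and 7.10 (mutant) in culture. It rose by 0.92 ± 0.13 in tissue (1.90-fold, adjusted p = 0.00052), and its second probe set differed by 1.04. Kif21b read 7.86 on the WT tissue array and 8.34 and 8.68 on the mutant ones (0.64 ± 0.16, adjusted p = 0.018). Kif1b, which carries mitochondria and synaptic vesicle precursors, read 9.29 on the WT tissue array and 9.68 and 9.84 on the mutant ones (0.47 ± 0.11, adjusted p = 0.012), although its 7 probe sets above the filter ranged from −0.19 to 0.93. Kif1a, the main motor of synaptic vesicle precursors, differed by 0.47 with an SE of 0.34 (limma adjusted p = 0.39). The other probe set of Kif1a above the filter differed by −0.23. Kif3a, a kinesin-2 motor, differed by 0.20 (limma adjusted p = 0.33). Kif13b, with −0.37, and Kif5b were the transport kinesins with both mutant arrays below WT. Kif17 and Kifc2 were too dim to be tested. Among the other kinesins, Kif2a, which trims microtubule ends in spindles and growing neurites, differed by −0.15 ± 0.11 (adjusted p = 0.40), with 4 probe sets between −0.15 and 0.40.

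Genes of cargo adaptors moved in the same direction as the transport kinesins. Of 18 tested, 6 rose and 0 fell, with a median of 0.23. They included Kidins220, a membrane cargo of kinesin-1 (0.63 ± 0.10, adjusted p = 0.00096), Trak1, the adaptor for mitochondria (0.63 ± 0.14, adjusted p = 0.0086), and Kifap3, the adaptor subunit of kinesin-2 (0.41 ± 0.09, adjusted p = 0.011). Neuronal markers also rose, 11 of 14 tested with 1 lower (median 0.74), and their summed signal was 12036 in WT tissue against 17874 and 17878 in mutant tissue. Summed over their named members, the transport kinesins went from 4393 to 5526 and 5765. Markers of the oligodendrocyte lineage summed to 1318 in WT tissue against 2364 and 2409 in mutant tissue, and to 703 in WT against 1343 in mutant culture, while microglial markers summed to 688 against 743 and 745 in tissue. The part of the share of neurons and of oligodendrocyte lineage cells in these differences was not tested.

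Dynein chains did not move as a class, and the largest fall of any member in tissue was in Dync1i1, the intermediate chain of dynein 1 found mainly in neurons. Dync1i1 read 8.38 on the WT tissue array, 6.97 and 6.30 on those of mutant tissue, and 7.08 (WT) and 6.54 (mutant) in culture. The mutant array was the lower in both preparations, and the 2 mutant tissue arrays differed by an SD of 0.47. It fell by 1.74 ± 0.25 in tissue, or 3.34-fold (limma adjusted p = 0.00059), from the 1 probe set that names the gene. Dync1i2, the intermediate chain found in all cells, had 10.77 on the WT tissue array and 11.06 and 10.92 on the mutant ones and did not pass. The heavy chain gene Dync1h1 rose by 0.42 ± 0.12 (adjusted p = 0.040) on the probe set used, with 8.42 on the WT tissue array and 8.82 and 8.84 on the mutant ones, while its other, dimmer probe set differed by −0.44. Over the 5 chains of dynein 1 the median was 0.09.

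Among the light chains, Dynll2 rose by 0.45 ± 0.09 (adjusted p = 0.0044), from 10.46 in WT tissue to 10.84 and 10.97. The second probe set of Dynll2 differed by −0.40, which leaves the direction uncertain. Dynll1, the hub light chain that dynein shares with many other complexes, had 13.15 on the WT tissue array and 13.25 and 13.33 on the mutant ones (adjusted p = 0.17). The 2 tested chains of dynein 2, the motor of retrograde transport in cilia, did not pass. Of 15 dynactin genes and dynein regulators tested, 0 rose and 1 fell, Dctn3, a dynactin subunit, by 0.35 ± 0.08 (adjusted p = 0.013), with a median of 0.16 over the list.

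Most tubulins did not pass for genotype in tissue, and the beta-tubulin isotypes that passed split in direction, 2 higher and 1 lower of 8. Tubb2a, a beta-tubulin of neurons, read 11.21 on the WT tissue array, 11.88 and 11.83 on those of mutant tissue, and 12.43 (WT) and 12.40 (mutant) in culture. Its tissue rise was 0.65 ± 0.07, or 1.56-fold (limma adjusted p = 0.00011), and WT tissue was the lowest of the 5 arrays. The identifier of this probe set carries the suffix of sets that can match several genes. The other probe set of Tubb2a, which lacks that suffix, differed by 0.13. Tubb4a rose from 8.13 in WT tissue to 8.64 and 8.68 (0.53 ± 0.13, adjusted p = 0.016). Tubb4b, an isotype of many tissues and of cilia, fell, with differences of −0.51 and −0.22 on the mutant arrays (−0.37 ± 0.11, adjusted p = 0.042). The other probe set of Tubb4b above the filter differed by −0.78. With the mean of its probe sets, which takes in sets below the filter, Tubb4b differed by 0.15 instead. Its direction thus depends on whether these dimmer probe sets are used.

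Tubb3, the class III beta-tubulin used as a marker of neurons, differed by −0.13 ± 0.08 (adjusted p = 0.29), with 12.02 on the WT tissue array and 11.82 and 11.96 on the mutant ones. Tubb2b, a beta-tubulin of migrating neurons, differed by 0.17 ± 0.07 (0.11), Tuba1a, the main alpha-tubulin of postmitotic neurons, by 0.15 ± 0.06 (0.086), and Tubb5 by −0.0041 ± 0.058 (0.97). Tubg1, the gamma-tubulin that nucleates microtubules, differed by −0.18 ± 0.12 (0.36). Tuba1a to Tuba1c are near-identical genes, and the 1 probe set of Tuba1a carries the suffix _x_at of sets that can match several genes. Its value may therefore include signal of the other genes. Over all members, 11 probe sets with several symbols, a member among them, were not used. Tuba1b and Tuba1c are not analysed here. Of 16 genes of the gamma-tubulin ring and augmin complexes, 3 fell and 1 rose (median −0.22): Haus3 by 0.96 ± 0.14, Haus1 by 0.75 ± 0.13 and Haus6 by 0.74 ± 0.22 fell, all subunits of augmin, which seeds microtubules inside the spindle, and Mzt1 rose by 0.27. Of 22 genes of tubulin folding and modification, 2 rose and 1 fell (median −0.02): Atat1, the alpha-tubulin acetyltransferase, rose by 0.68 ± 0.13, Ttll1 by 0.37, and Tbcd, a tubulin cofactor, fell by 0.52.

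**Figure D3:**
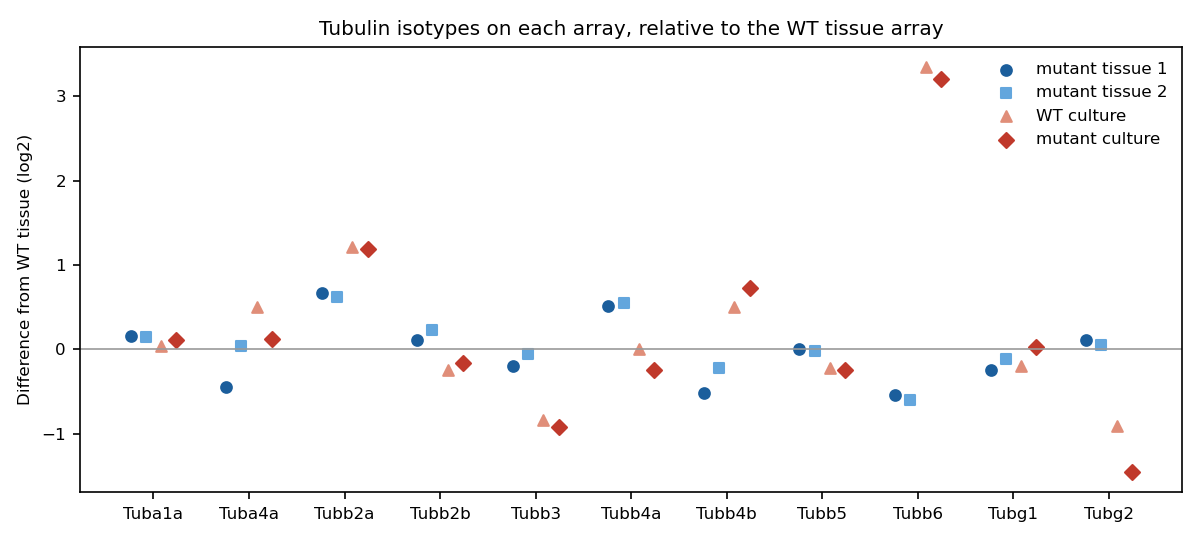
Difference from the WT tissue array (log2, y axis) of 11 tubulins on the other 4 arrays, 1 point per array. The mutant tissue points of Tubb2a and Tubb4a lie above 0, both culture points of Tubb6 lie above 3, and those of Tubb3 lie below 0.

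These tissue calls depend on how the variance was modelled and on the probe set chosen. Without an intensity trend in the prior, 0 of the 20 called members passed (and 2 of all genes tested). With the mean of all probe sets, 4 passed, all lower (Dync1i1, Kif11, Kif20a and Kif22), and with every dim gene tested too, 0 of the 20 did.

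In culture, 0 of 58 members differed by at least 2-fold between the mutant and the WT array in either direction, against 1.85% of all genes tested higher and 1.83% lower. There was 1 array of each genotype, so no test within culture was made. The differences ranged from −0.63 (Kif13b) to 0.89 (Dynlrb2). The mutant array lay above the WT array for 8 of 11 mitotic kinesins (median 0.13) and for 9 of 15 transport kinesins (median 0.06), where 51.7% of all genes tested lay above. Kif18a, at 7.56 in WT and 8.39 in mutant culture, differed most among the mitotic kinesins, by 0.83. The 27 other mitosis genes had a median of 0.17 in culture and a summed signal of 22631 in the WT and 25011 in the mutant array, and the neuronal markers a median of 0.07, with 14155 and 14908.

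**Figure D4:**
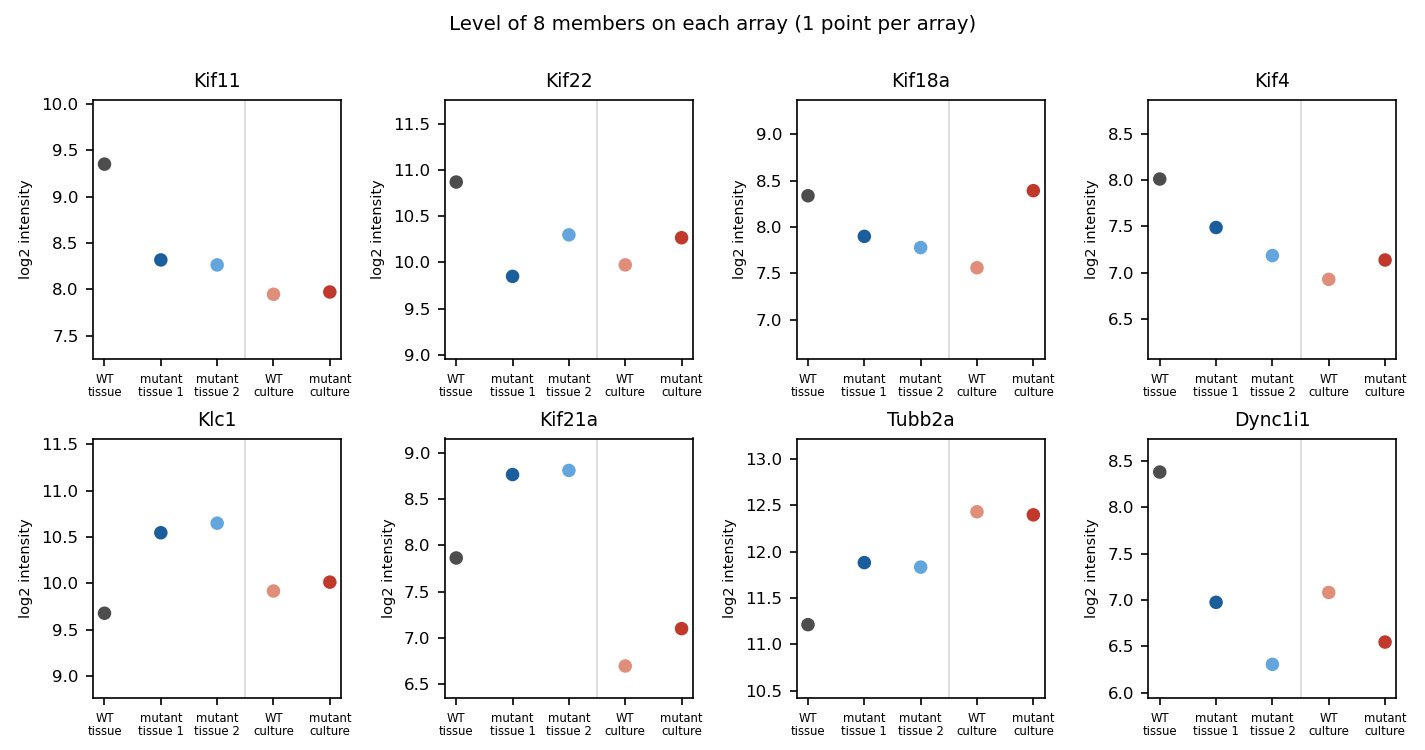
Log2 intensity (y axis) of 8 members on each of the 5 arrays, 1 point per array, with the same height of axis in every panel. WT tissue is the highest array for Kif11, Kif22, Kif4 and Dync1i1, and the mutant tissue arrays are the highest for Klc1 and Kif21a.

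The genotype difference in culture was tested against that in tissue as an interaction, and 5 of 58 members passed, 3 higher and 2 lower. Of all genes tested 4.48% passed, 2.21% higher and 2.27% lower. For Kif18a the culture difference exceeded the tissue difference by 1.33 ± 0.23 (limma adjusted p = 0.012), for Kif22 by 1.09 ± 0.23 (0.031) and for Kif11 by 1.09 ± 0.20 (0.017). It lay below the tissue difference for Klc1 (−0.82 ± 0.14, adjusted p = 0.012) and Tubb2a (−0.68 ± 0.11, adjusted p = 0.0082). For the other mitotic kinesins the interaction did not pass, with Kif2c at 0.74 (0.059) and Kif20a at 0.91 (0.064), and for Kif5a (−0.82, 0.14), Kif5c (−0.44, 0.099) and Kif21a (−0.52, 0.26) it did not pass either. These calls take their error from the mutant tissue pair and the prior, and assume that the single arrays of the other 3 groups vary alike. The interaction shares its tissue arrays with the tissue comparison. None of the 5 calls was kept without an intensity trend, with the mean of probe sets or with dim genes tested too, and with the deposited scaling kept 9 members passed, Tubb2a not among them.

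Across both preparations together, 0 of 58 members passed in either direction (limma adjusted p, 1.07% of all genes tested passed: 0.814% higher and 0.253% lower), and 14 had an unadjusted p under 0.05, as had 13% of all genes tested. Dync1i1 had the largest difference, −1.22 ± 0.31 (adjusted p = 0.14), while Kif21a differed by 0.70 ± 0.16 (0.11), Kif11 by −0.60 ± 0.23 (0.32) and Klc1 by 0.57 ± 0.17 (0.22).

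Between cultures and tissue, 10 of 58 members were higher and 13 lower in culture (limma, model with genotype and preparation), a share close to that of all genes tested (19.6% higher, 19.2% lower, 38.8% in all). Tubb6, a beta-tubulin that is rare in healthy brain, had 6.81 on the WT tissue array and 6.26 and 6.21 on the mutant ones, against 10.15 in WT and 10.01 in mutant culture. All tissue arrays lay more than 3 log2 units below both culture arrays. The rise was 3.59 ± 0.16, or 12.1-fold (adjusted p = 5.4e-06), while its second, dimmer probe set differed by 0.22 in WT and −0.38 in mutants. Kif1c, a carrier of dense core vesicles and integrins, had 5.85 on the WT tissue array, 6.52 and 6.47 on those of mutant tissue, and 8.18 (WT) and 8.49 (mutant) in culture. It rose by 2.14 ± 0.17 (4.40-fold, adjusted p = 8.5e-05).

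Kifc3, a minus-end kinesin, rose by 1.47 ± 0.30 (adjusted p = 0.0064) and the dynein light chain gene Dynlt3 by 1.12 ± 0.12 (0.00028), the latter in 4 of 4 probe sets. Kif26a, a kinesin without ATPase activity, fell by 1.81 ± 0.21 (3.50-fold, adjusted p = 0.00048), from 6.99, 7.08 and 7.19 in tissue to 5.01 and 5.46 in culture. Kif21a fell by 1.46 ± 0.16 (adjusted p = 0.00040) and Kif21b by 0.85 ± 0.18 (0.0069), so these 2 genes, which rose in mutant tissue, had their lowest levels in culture. Tubg2, the gamma-tubulin found mainly in brain, fell by 1.27 ± 0.32 (limma adjusted p = 0.016) and Klc4 by 1.12 ± 0.18 (0.0021). Tubb4b rose by 0.84 ± 0.15 (0.0031). The second probe set of Tubb4b above the filter differed by −0.09 in WT and 0.12 in mutants, and with the mean of probe sets the Tubb4b call was lost.

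The beta-tubulins split 3 higher and 3 lower. Tubb2a rose by 0.83 ± 0.14 (limma adjusted p = 0.0024), while Tubb3 fell by 0.81 ± 0.08 (adjusted p = 0.00019). On the probe set used, Tubb2a differed by 1.22 in WT and 0.54 in mutants. The second probe set of Tubb2a differed by 0.21 in WT and −0.035 in mutants. Without _x_at and _s_at probe sets, which can match several genes, the Tubb2a call was lost. Tubb3 went from 12.02, 11.82 and 11.96 in tissue to 11.18 and 11.10 in culture. Of the 14 listed neuronal markers, 4 were higher and 5 lower in culture, with differences from −1.81 to 1.05. Of the mitotic kinesins, Kif11 fell (−0.78 ± 0.23, adjusted p = 0.028) and the other 10 tested did not pass. In WT samples 9 of 11 mitotic kinesins were lower in culture than in tissue, and in mutants 3 of 11 were lower than the mean of the mutant tissue arrays. Over all genes tested, the median differences between culture and tissue were −0.0019 in WT and 0.0037 in mutants. The WT count and the WT difference of Kif11 rest on the same WT tissue array as the genotype comparison in tissue. They are thus not separate observations.

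**Figure D5:**
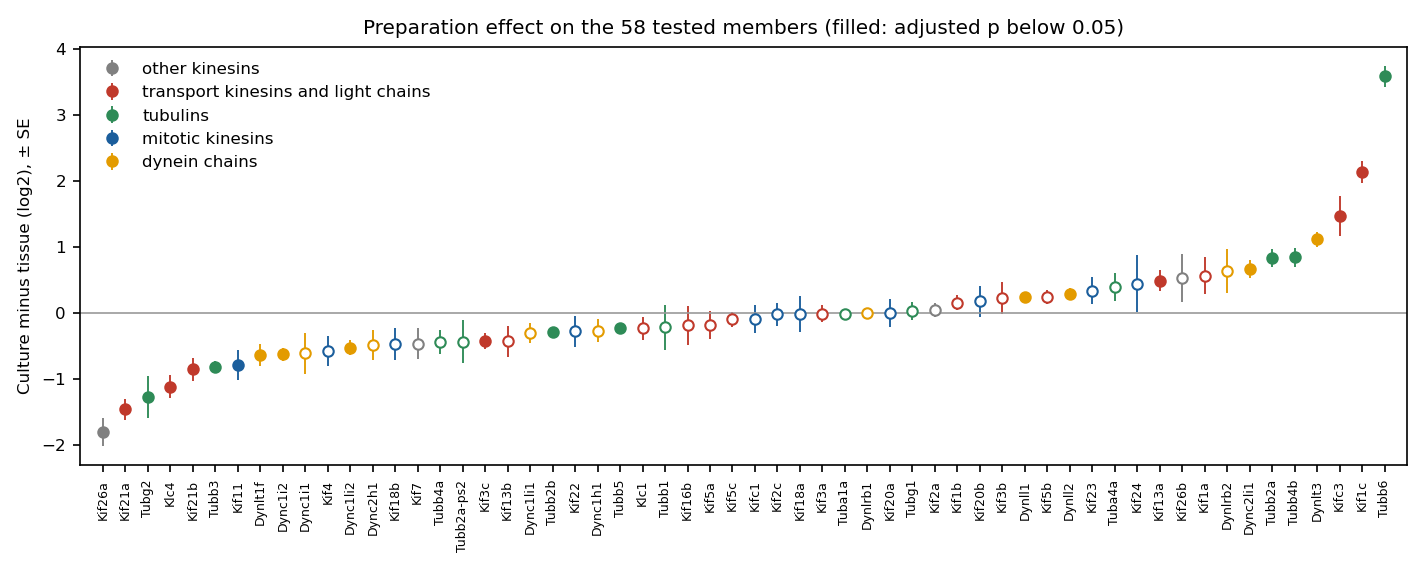
Culture minus tissue difference (log2, y axis, with the SE of the fit) of the 58 tested members in order of size, coloured by class and filled where the adjusted p lay below 0.05. Tubb6 and Kif1c are the highest, and Kif26a and Kif21a the lowest.

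Summed marker signals of cell types other than neurons differed between the preparations. The summed signal of red blood cell genes was 9416 to 10423 in the tissue arrays against 9.10 and 14.6 in culture, and that of endothelial markers 803 to 958 against 172 and 216. Astrocyte markers summed to 1272 to 1521 in tissue and 2577 and 3720 in culture, but were mixed, with 3 of 5 tested higher and 1 lower. Markers of motile cilia summed to 169 to 236 in tissue and 457 and 575 in culture. Only 2 of the 10 named cilia markers passed the filter, and 1 of these was called higher in culture. The part of these cells in the preparation differences of the members was not tested. Without mutant tissue replicate 1, 8 rather than 13 members were lower in culture (12 without replicate 2), and the lost calls were those of Dync1li2, Dynlt1f, Kif3c, Tubb5 and Tubg2.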

How the data were processed

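RNA of 5 samples was measured on Affymetrix mouse arrays. The authors deposited 1 linear intensity per probe set for 45101 probe sets, and the deposited values show each array scaled to a mean of 150 after trimming 2% at each end; no source used here names the software. Array medians were 26.2 to 29.8. Arrays were quantile normalized, raised to a floor at the 20th percentile of all values (5.15, log2 2.36), and put on the log2 scale. Probe sets were named from the platform annotation, only where it gives 1 symbol (34958 of them; 932 had several), and the 64 control probe sets were left out. The brightest probe set by mean log2 stood for a gene (161 probe sets for the 72 members), and 11063 genes above the pooled median were tested.

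Differences were fitted in limma 3.58.1 (R 4.3.3; eBayes with a trend on intensity) and p-values Benjamini-Hochberg adjusted over all genes tested: tissue (3 arrays, 1 residual and 10.9 prior degrees of freedom), genotype and preparation (5 arrays, 2 and 5.95) and the 4 group means (1 and 8.57). A group of 1 array was taken to vary as the mutant tissue pair did, and the number of arrays limits the precision. The fits were tested on simulated data. Intensities of different probe sets were not set against each other.

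The members, classes and lists were chosen with earlier results of these data known. Named are the members past the threshold in the tissue, interaction or joint fit, the 10 largest preparation changes past it, and 21 genes always named; others named were chosen after their values were seen. Alternatives were the deposited scaling, a floor at the 10th percentile, no filter or one at the 75th percentile, the mean of probe sets, no intensity trend, each mutant tissue array left out, and, chosen after seeing the data, leaving out probe sets with the suffixes _x_at and _s_at. Promoters came from RefSeq (GRCm38.p6).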

Additional observations from a re-analysis of the deposited data

Results flagged for a closer look

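The genotype difference in culture departed from that in tissue, by the test of the interaction in limma (adjusted p below 0.05), for 5 members. Both culture groups and WT tissue are 1 array each, so this test takes its error from the mutant tissue pair and the prior, and assumes that the single arrays vary alike. The culture difference minus the tissue difference was 1.09 (log2) for Kif11, 1.33 for Kif18a, 1.09 for Kif22, −0.82 for Klc1 and −0.68 for Tubb2a. The signs in tissue and culture were opposite for Kif18a (−0.50 and 0.83) and Kif22 (−0.79 and 0.29). They were also opposite for Kif11 (−1.06 and 0.02) and Tubb2a (0.65 and −0.03), with culture values near 0. The dimmer probe sets of Kif11 above the filter differed by −0.077 and −0.12 in culture, so its sign there is not firm. For Klc1 the signs were alike (0.92 and 0.10).

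Of the 10 classes with at least 2 tested members, 4 had a median that lay on one side of 0 in both mutant tissue arrays and on the other in culture, a difference that was not tested. The culture median minus the tissue median was 0.80 for the mitotic kinesins, 0.43 for the 2 chains of dynein 2, −0.42 for the chains of dynein 1 and −0.13 for the beta-tubulins. The beta-tubulin median in tissue turned from 0.07 to −0.17 with the deposited scaling kept, so its sign there is not firm.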

How the results depend on the processing

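All 5 arrays were kept in each alternative except those that leave out a replicate. No paired analysis was possible because the groups compared share fewer than 2 replicate numbers. With a mutant tissue array left out, the tissue and interaction fits had no residual degree of freedom and gave values with no test.

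In tissue, the 10 members higher and 10 lower became 0 and 2 with dim genes tested too, 0 and 4 with the mean of a gene's probe sets, and 0 and 0 without an intensity trend. Of the 8 mitotic kinesins lower in tissue, 0 were kept with dim genes tested, where the count of 1 was Kifc5b, a gene too dim for the main test; 3 passed with the mean of probe sets, 0 without the trend and 5 without _x_at and _s_at probe sets. The 5 transport kinesins higher became 0, 0 and 0. The interaction calls, 3 higher and 2 lower, became 6 and 3 with the deposited scaling, 1 and 0 with dim genes tested, 7 and 5 with the filter at the 75th percentile, 0 and 0 with the mean of probe sets and without the trend, and 1 lower without _x_at and _s_at probe sets. The 3 mitotic kinesins among them became 5 with the deposited scaling and with the stricter filter, 1 with dim genes tested (Kifc5b, with none of the 3 kept), and 0 with the mean of probe sets and without the trend. The preparation calls, 10 higher and 13 lower, became 4 and 5 with dim genes tested. Without 1 mutant tissue array the counts ranged from 7 to 8 higher and from 8 to 12 lower. In culture, 1 dim member (Kifc5b) reached a 2-fold rise with dim genes counted. The joint genotype fit gave 0 members under every setting. Why these counts moved was not tested, apart from the changed number of genes tested.

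The mitotic kinesin median in tissue, −0.67, was −0.61 with the deposited scaling, −0.65 with dim genes and −0.66 and −0.64 without either mutant array; in culture, 0.13 became 0.14 with the deposited scaling, 0.085 with dim genes, 0.16 with the stricter filter and 0.17 without _x_at and _s_at probe sets. The transport median in tissue, 0.47, became 0.27 with the mean of probe sets and ranged from 0.40 to 0.47 without either mutant array.

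Signs turned for 3 members called in tissue: with the mean of probe sets Dync1h1 went from 0.42 to −0.014 and Tubb4b from −0.37 to 0.15, and without _x_at and _s_at probe sets Dynll2 went from 0.45 to −0.40 (adjusted p = 0.033). Signs of some medians turned too. The beta-tubulin median in tissue became −0.17 with the deposited scaling and −0.0041 with the stricter filter. With the mean of probe sets, the median of dynein 1 became −0.014 and that of the dynactin list −0.069. The tubulin folding median became 0.025 with the deposited scaling, 0.031 with the mean of probe sets and 0.041 without _x_at and _s_at probe sets, and it ranged from −0.018 to 0.011 without either mutant array. The neuronal marker median in culture became −0.025 with the stricter filter.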
